A study of Mus musculus with 17 samples.

Results

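The comparison described here is the effect of transforming growth factor beta 1 (TGF-β1) on cultured mouse bone marrow macrophages, taken over wild-type and Smad3-knockout cells together. All 7 libraries titled as treated were set against all 10 titled as control, 17 of the 17 libraries in the series, with genotype as a covariate, and every gene that passed a filter on low values is a member. The 4 groups were wild-type control with 5 libraries, wild-type TGF-β1 with 4, Smad3-knockout control with 5 and Smad3-knockout TGF-β1 with 3. All groups share the C57BL/6J strain, and in all of them bone marrow cells were first cultured in M-CSF, the growth factor of macrophages, at 50 ng/ml for 7 days. The treatment was TGF-β1 at 5 ng/ml for 5 days. The treatment text is the same on control samples, so the groups rest on the titles, and the sources used here do not say if control cells were kept for those further days. RNA was purified from suspended cells on columns and amplified by SMART-seq2, a protocol that copies full-length transcripts from small inputs. Per the design text, macrophages carrying the F4/80 antigen were sorted by smooth muscle actin, but no label ties a library to a sort. A library may be 1 cell or many, since the title and the extraction text differ on this. Animals and cultures are not named, so p-values cover only library-to-library spread, which may be technical. The values are TPM, transcript levels scaled to the same total in every library, which keep no read depth, so the depth is unknown.

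TGF-β1 is a secreted cytokine that binds a pair of receptor kinases, which phosphorylate Smad2 and Smad3. These move to the nucleus with Smad4 and switch target genes, among them Smad7, which inhibits the pathway. In macrophages the cytokine is known for restraining inflammation and for its part in the gene programme of microglia, the macrophages of the brain. In kidney fibrosis, macrophages exposed to it have been described as turning into myofibroblasts, cells that make smooth muscle actin and collagen, and the title of the series names that transition.

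Smad3 itself went against the labels after TGF-β1 and followed them only in part among controls. Its mean TPM was 5.39 in wild-type and 0.44 in knockout controls, and 0 and 9.48 in the treated groups. In TPM, the libraries labelled wild-type control held 0, 0.01, 0, 15.4 and 11.5, and all 4 labelled wild-type TGF-β1 held 0. The libraries labelled knockout control held 0, 0.27, 1.93, 0 and 0, and those labelled knockout TGF-β1 held 6.18, 0.01 and 22.3. Smad3 was thus at its highest in a library labelled knockout, and absent or near 0 in most of those labelled wild type, so "knockout" below means only the label. Which part of the gene is deleted is not stated there.

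The macrophage identity of the libraries was plain in the control and in the treated groups. Cd68, a lysosomal membrane protein of macrophages, ranged from 1435 to 4233 TPM over the controls with a median of 2952, and from 1129 to 2897 with a median of 2188 after TGF-β1. Adgre1, which encodes the F4/80 antigen, ranged from 25.4 to 328 TPM in controls with a median of 116, and from 120 to 591 with a median of 359 after TGF-β1. Its log2 difference of 1.17 ± 0.45 (SE) did not pass (limma adjusted p = 0.312). Each library had 7269 to 10307 genes at TPM 1 or more. Their number averaged 8765 ± 857 (SD, n = 10) in controls and 9093 ± 851 (SD, n = 7) after TGF-β1, a difference within the spread (two-sided exact permutation test within genotype, p = 0.366).

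After TGF-β1, Ch25h, which makes an oxysterol, showed the largest rise, and genes such as Cd72, Il21r, Man2b1, Cdkn1a, Tmsb4x and Tuba1b rose with it. The lipid-handling genes Cd36, Lpl and Plin2 and the abundant genes Esd, Lgals3 and Tmsb10 were among those that fell. Of 12158 genes tested, 53 passed (0.436%), 40 of them higher (0.329%) and 13 lower (0.107%) after TGF-β1. Counts of passing list members below stand beside that 0.436%. The test was limma on log2(TPM + 1) with genotype as covariate, and a gene passed at a Benjamini-Hochberg adjusted p under 0.05 over all genes tested. An unadjusted p under 0.05 was reached by 1371 genes (11.3%), 952 higher (7.83%) and 419 lower (3.45%), and 54.3% of all genes tested had a positive difference. The genes that rose did so by 0.95 to 7.06 on the log2 scale, beside a median of 0.08 over all genes tested. The genes that fell did so by 1.13 to 4.59. For genes near 0 in 1 treatment the size depends on the pseudocount: with 10 in place of 1 the difference was 2.62 for Il21r, 2.40 for Rgs12 and −2.94 for Cd36. Of the 40 that rose, 5 averaged under TPM 1 in controls, 15 averaged from 1 to 20 and 20 averaged 20 or more. A gene was tested if 3 or more libraries held it at TPM 1 or more. Some that rose, such as Mcam, Hes1, Haao, Hpgd and Phlda3, met this only through treated libraries. For such genes the direction was largely fixed by the filter. Of the 13 that fell, 12 averaged TPM 100 or more in controls. Adding the count of detected genes per library to the covariates made the split 33 higher and 19 lower.

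These counts changed with the libraries and covariates in the fit. Leaving out 1 library at a time gave 28 to 86 genes that passed, the lowest without wild-type TGF-β1 library 1 or knockout TGF-β1 library 2 and the highest without knockout TGF-β1 library 1. In all 17 such fits, 23 of the 53 genes passed. In 6 libraries, 4 controls and 2 treated, over 10% of moderately expressed genes were listed at 0, and without those 6 no gene passed, while 1018 had an unadjusted p under 0.05. The mean level of cell cycle genes was higher in the treated libraries, and with that level as a further covariate, an alternative added after the data were seen, 5 genes passed, 3 of them among the 53. Treatment and cell cycle level cannot be told apart in these libraries beyond that fit. All 53 differences kept their direction in each of these fits, which choosing the genes by that difference in the same libraries largely fixes.

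**Figure D1:**
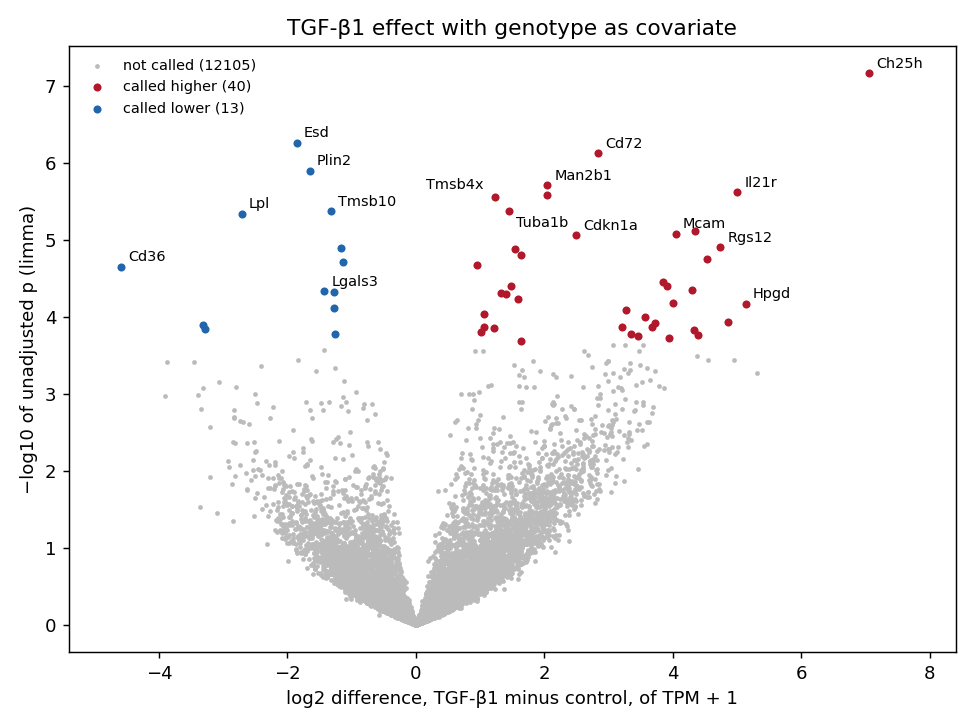
Size and unadjusted limma p of the TGF-β1 effect for the 12158 genes tested. The x axis is the log2 difference of TPM + 1, TGF-β1 minus control with genotype as covariate, and the y axis is −log10 of the p. Coloured points are the 40 genes that rose and the 13 that fell. Ch25h stands farthest to the right and Cd36 farthest to the left among them.

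The promoters of 4 genes on which the results turn are shown first: Ch25h and Cd72, which rose, and Plin2 and Cd36, which fell. Each is the RefSeq window of GRCm38.p6, read 5′ to 3′ on the gene's strand, from 250 bases before the annotated start to 50 bases after it. Capitals mark matches on either strand to GAGGAAGT (a core site of PU.1, the factor that defines macrophages), CAGACA (the core of the CAGA box that Smad3 binds), TTTGAA (a cell cycle element) or CCAAT.
Ch25h, chr19:34475099-34475398, minus strand: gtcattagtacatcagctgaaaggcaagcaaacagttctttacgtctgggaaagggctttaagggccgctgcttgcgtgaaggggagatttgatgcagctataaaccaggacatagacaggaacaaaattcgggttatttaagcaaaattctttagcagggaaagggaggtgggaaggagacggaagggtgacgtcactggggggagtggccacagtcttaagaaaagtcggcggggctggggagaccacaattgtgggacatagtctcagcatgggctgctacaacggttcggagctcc
Cd72, chr4:43454577-43454876, minus strand: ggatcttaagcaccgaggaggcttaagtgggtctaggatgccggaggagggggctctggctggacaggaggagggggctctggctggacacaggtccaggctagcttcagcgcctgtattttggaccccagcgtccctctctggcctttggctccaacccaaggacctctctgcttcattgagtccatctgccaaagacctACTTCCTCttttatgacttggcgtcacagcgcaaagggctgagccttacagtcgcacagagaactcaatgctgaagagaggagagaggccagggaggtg
Plin2, chr4:86670010-86670309, minus strand: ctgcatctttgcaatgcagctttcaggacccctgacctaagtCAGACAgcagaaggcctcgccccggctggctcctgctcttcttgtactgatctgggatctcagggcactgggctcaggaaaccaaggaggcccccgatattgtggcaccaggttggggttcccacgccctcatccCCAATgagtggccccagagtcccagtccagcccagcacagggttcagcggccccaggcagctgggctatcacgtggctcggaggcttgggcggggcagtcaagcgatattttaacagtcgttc
Cd36, chr5:17835847-17836146, minus strand: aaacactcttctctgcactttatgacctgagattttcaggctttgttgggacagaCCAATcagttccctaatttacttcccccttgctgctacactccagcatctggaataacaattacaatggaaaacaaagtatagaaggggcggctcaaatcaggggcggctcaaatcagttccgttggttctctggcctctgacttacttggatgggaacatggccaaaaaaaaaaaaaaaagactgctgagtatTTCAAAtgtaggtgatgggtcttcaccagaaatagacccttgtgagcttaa
The Cd72 window holds ACTTCCTC, the reverse complement of the PU.1 core. The Plin2 window holds CAGACA and CCAAT, the Cd36 window CCAAT and TTCAAA, and in the Ch25h window these letters do not occur.

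Of the 40 genes that rose, 29 had an entry, with 33 windows. The PU.1 core lay in 5 of those (15.15%), of C1qc, Cd72, Rgs12, Slamf9 and Traf3ip3. It lay in 3.367% of the 10662 windows of all tested genes with an entry, and in 0 of 13 windows of the 9 genes that fell and had an entry. CAGACA lay in 18.18% of the windows of genes that rose, 15.38% of those of genes that fell and 15.65% of all. TTTGAA lay in 6.061%, 7.692% and 12.45% of the same sets, and CCAAT in 27.27%, 30.77% and 38.23%. TCACGTGA, the palindromic core of the element found before many lysosomal genes, lay in 0 of the 33 and 0 of the 13 windows and in 1.988% of all. No motif overlaps another in its letters, and these matches are descriptions of the windows only.

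Ch25h, the enzyme that turns cholesterol into an oxysterol released by activated macrophages, had the largest rise. Its level ranged from 0 to 48.1 TPM in the 10 controls with a median of 0.115, and from 141 to 1062 TPM with a median of 384 in the 7 treated libraries. All 7 treated libraries were above every control. The log2 difference was 7.06 ± 0.87 (SE; limma adjusted p = 0.000836), with 7.23 in wild type and 6.86 in knockout. The wild-type treated libraries held 833, 141, 384 and 388 TPM, and the knockout treated ones 182, 1062 and 337. Among controls, 3 held more than 1 TPM, wild-type library 1 with 48.1 and knockout libraries 4 and 5 with 20.2 and 18.5. With cell cycle level as a covariate the difference was 8.02 (limma adjusted p = 0.0235), and among the 11 libraries with few zeros it was 5.59 and no longer passed (limma adjusted p = 0.0933).

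No other gene of cholesterol efflux and oxysterol sensing passed. Of 12 tested, 8 had a positive and 4 a negative difference, and the median was 0.84. Apoe, the apolipoprotein that macrophages secrete with cholesterol, held 40, 0.48, 34.2, 2053 and 22.6 TPM in the wild-type controls, at most 0.14 in the knockout controls and at most 0.19 after TGF-β1. All 5 wild-type controls were above all 4 wild-type treated libraries. Its log2 difference over both genotypes, −2.86 ± 1.08 (SE), did not pass (limma adjusted p = 0.3), with −5.25 in wild type and −0.04 in knockout and an unadjusted p of 0.012 for the difference between them. Nr1h3, which encodes the oxysterol receptor LXR alpha, had a median of 17.5 TPM in controls and was at 0 in 4 treated libraries, with a difference of −2.11 ± 0.94 in log2 (SE; limma adjusted p = 0.4). Among 19 cholesterol synthesis genes none passed, 13 had a negative difference and the median was −0.60. Insig1, which restrains sterol synthesis, had a difference of −1.71 ± 0.69 in log2 (SE; limma adjusted p = 0.328).

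Of the genes of lipid uptake and storage, Cd36, Lpl and Plin2 fell. Among 15 tested, 14 had a negative difference, 7 of these at an unadjusted p under 0.05, beside 3.45% of all genes, and the median was −1.11. Lpl, the lipase that frees fatty acids from lipoproteins, ranged from 763 to 3089 TPM in controls with a median of 1578, and from 66.7 to 1558 TPM with a median of 160 after TGF-β1. In 6 of the 7 treated libraries it was below every control. The exception was knockout TGF-β1 library 1 with 1558 TPM. Its log2 difference was −2.72 ± 0.44 (SE; limma adjusted p = 0.00506).

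Plin2, the coat protein of lipid droplets, ranged from 624 to 1634 TPM in controls with a median of 920, and from 146 to 589 TPM with a median of 272 after TGF-β1. The groups did not overlap. It fell by 1.65 ± 0.25 (SE) on the log2 scale (limma adjusted p = 0.00384). Cd36, a scavenger receptor that takes up oxidised lipoproteins and fatty acids, had a median of 241 TPM in controls, with a range of 21.5 to 1161. In the wild-type treated libraries it held 0.09, 0.06, 0.29 and 0.36 TPM, and in the knockout treated ones 283, 38.8 and 52. All 4 wild-type treated libraries were below every control, whereas the knockout treated libraries lay inside the control range. The log2 difference was −4.59 ± 0.85 (SE; limma adjusted p = 0.0124) over both genotypes, −6.92 in wild type and −1.83 in knockout. That difference between genotypes had an unadjusted p of 0.000996 and did not pass over all genes. Fabp4, a fatty acid carrier, had log2 difference −2.85 ± 1.34 (SE) and did not pass (limma adjusted p = 0.433).

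Esd, the esterase that hydrolyses the glutathione adduct of formate, fell in both genotypes without overlap. It ranged from 1781 to 2795 TPM in controls with a median of 2320, and from 278 to 1778 TPM with a median of 621 after TGF-β1, a difference of −1.85 ± 0.26 in log2 (SE; limma adjusted p = 0.00304). The highest treated library, knockout 1 with 1778 TPM, lay just under the lowest control with 1781. Rnh1, the cytosolic inhibitor of ribonucleases, also did not overlap, with 1011 to 2222 TPM in controls and 237 to 967 after TGF-β1. Its log2 difference was −1.28 ± 0.25 (SE; limma adjusted p = 0.0203), and without wild-type TGF-β1 library 1 or knockout TGF-β1 library 2 it did not pass (limma adjusted p = 0.0598 and 0.0596). Non-overlap of 7 against 10 was rare, at 14 of all genes tested (0.115%), 10 of them higher (0.0823%) and 4 lower (0.0329%). Among the genes that passed, it held for Ch25h, Ube2e3, Rasal3, Laptm5 and Tuba1b in the higher direction and for Esd, Plin2 and Rnh1 in the lower.

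**Figure D2:**
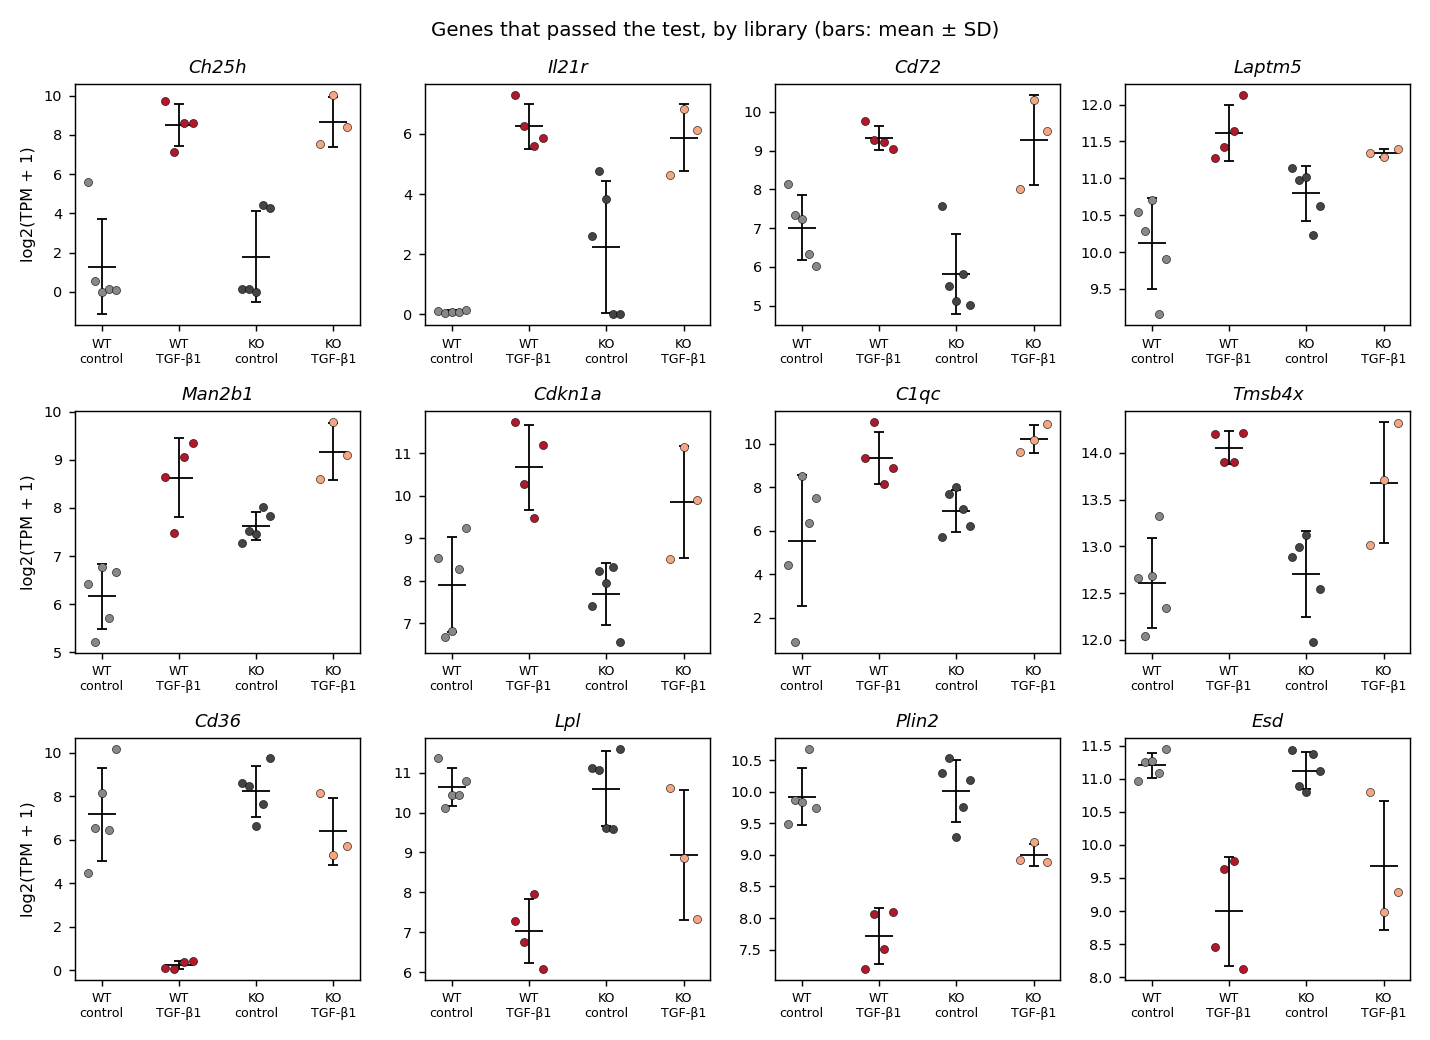
Level of 12 genes that passed in every library, as log2(TPM + 1) on the y axis, by genotype label and treatment. Each point is 1 library and bars are group mean ± SD. Ch25h, Laptm5, Plin2 and Esd do not overlap between treatments, and Cd36 is near 0 in the 4 wild-type treated libraries.

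Of the annexins, S100 proteins and galectins, which bind membranes, calcium or sugars, Anxa2, S100a11 and Lgals3 fell. Of 17 tested, 13 had a negative difference, 8 of them at an unadjusted p under 0.05, beside 3.45% of all genes, and the median was −0.65. Lgals3, galectin-3, is among the most abundant macrophage transcripts and ranged from 12917 to 28223 TPM in controls. After TGF-β1 it ranged from 3139 to 21579 TPM with a median of 6305, below every control in 6 of 7 libraries, and knockout TGF-β1 library 1 again lay within the control range. Its log2 difference was −1.43 ± 0.28 (SE; limma adjusted p = 0.0203). Without wild-type TGF-β1 library 1 or 4 or knockout TGF-β1 library 2 it did not pass (limma adjusted p = 0.0598, 0.0574 and 0.0675). Anxa2, an annexin at the cell surface, had a median of 1362 TPM in controls and 694 after TGF-β1 (log2 difference −1.13 ± 0.21, SE; limma adjusted p = 0.0119). S100a11, with medians of 362 and 125 TPM (limma adjusted p = 0.0415), passed in 4 of the 17 fits without 1 library, and its highest adjusted p was 0.116 without knockout TGF-β1 library 2. S100a8, a neutrophil and monocyte protein, was at 0 in all treated libraries and above 1 TPM in 3 controls, with 11, 34.6 and 132 TPM.

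The lysosomal genes Man2b1 and Lamp2 rose, and no lysosomal gene fell by the adjusted test. Of 40 tested, 26 had a positive and 14 a negative difference, and the median was 0.23. At an unadjusted p under 0.05, 11 were higher and 6 lower, beside 7.83% and 3.45% of all genes. Man2b1, the lysosomal alpha-mannosidase, ranged from 36.4 to 258 TPM in controls with a median of 132, and from 176 to 884 TPM with a median of 530 after TGF-β1. In 6 of 7 treated libraries it was above every control. The log2 difference was 2.04 ± 0.31 (SE; limma adjusted p = 0.00416), with 2.46 in wild type and 1.54 in knockout. With cell cycle level as a covariate it was 2.50 and did not pass (limma adjusted p = 0.0586).

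Lamp2, a membrane protein of lysosomes, went from a median of 325 TPM to 593 (log2 difference 1.01 ± 0.22, SE; limma adjusted p = 0.0403). It passed in 4 of the 17 fits without 1 library, with the highest adjusted p of 0.115 without knockout TGF-β1 library 2. No cathepsin passed. Ctsd, cathepsin D, was one of the most abundant transcripts at 4365 to 12633 TPM in controls. The wild-type treated libraries held 31342, 27631, 16485 and 32752 TPM, all above every control, and the knockout treated ones 9714, 5591 and 6261, all within the control range. Over both genotypes the log2 difference of 0.89 ± 0.34 (SE) did not pass (limma adjusted p = 0.299), with 1.98 in wild type and −0.40 in knockout and an unadjusted p of 2.66e-05 for the difference between genotypes. The secreted cysteine protease inhibitor cystatin C, Cst3, rose from a median of 1539 TPM to 3159 (log2 difference 0.95 ± 0.18, SE; limma adjusted p = 0.0122). Cystatin B, Cstb, an intracellular inhibitor of the same proteases, fell from 2882 to 1352 (log2 difference −1.17 ± 0.21, SE; limma adjusted p = 0.00927).

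Cd72, Il21r, Slamf9, Mcam and Selplg, which encode cell surface proteins and are placed side by side here after they passed, rose. Cd72, an inhibitory lectin-like receptor best known on B cells, ranged from 31.4 to 280 TPM in controls with a median of 71.5, and from 255 to 1264 TPM with a median of 620 after TGF-β1. Knockout TGF-β1 library 1, at 255, was the one treated library inside the control range. The log2 difference was 2.84 ± 0.41 (SE; limma adjusted p = 0.00304), with 2.32 in wild type and 3.46 in knockout. Il21r, the receptor of interleukin-21, had a median of 0.07 TPM in controls, with a highest value of 26.2, and ranged from 24.1 to 157 TPM with a median of 69.5 after TGF-β1 (log2 difference 5.00 ± 0.78, SE; limma adjusted p = 0.00416). The 5 wild-type controls were at 0.04 to 0.11, and 3 knockout controls held 5.11, 26.2 and 13.2.

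Slamf9, a receptor of the SLAM family found on myeloid cells, rose from a median of 9.73 TPM to 231 (log2 difference 4.30 ± 0.84, SE; limma adjusted p = 0.0203), and passed with cell cycle level as a covariate at 6.42 (limma adjusted p = 0.0354). It did not pass without knockout TGF-β1 library 2 or wild-type TGF-β1 library 1 (limma adjusted p = 0.0682 and 0.0598). Traf3ip3, an adaptor that binds the signalling protein TRAF3, rose from a median of 0.195 TPM to 66.7 (log2 difference 4.53 ± 0.82, SE; limma adjusted p = 0.0114). Mcam, an adhesion molecule of the immunoglobulin family, was at 0.14 TPM or less in all 10 controls and from 11.5 to 63 TPM in 6 of 7 treated libraries, with 0.02 in knockout TGF-β1 library 1. Its log2 difference was 4.05 ± 0.69 (SE; limma adjusted p = 0.00753), for a gene that met the filter on low values through treated libraries alone. Selplg, the selectin ligand of leukocytes, rose from 125 to 379 (log2 difference 1.64 ± 0.37, SE; limma adjusted p = 0.0476) and passed in 4 of the 17 fits without 1 library. Its highest adjusted p was 0.117, without knockout TGF-β1 library 2.

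Csf1r, the receptor of M-CSF itself, rose from a median of 286 TPM (range 177 to 628) to 940 (range 563 to 1197). The log2 difference was 1.32 ± 0.26 (SE; limma adjusted p = 0.0203) and was 1.32 in wild type and 1.32 in knockout. It did not pass without wild-type TGF-β1 library 4 or knockout TGF-β1 library 2 or 3 (limma adjusted p = 0.0573, 0.0675 and 0.0567). Laptm5, a lysosomal membrane protein of blood cells, ranged from 569 to 2266 TPM in controls and from 2475 to 4498 after TGF-β1, with no overlap (log2 difference 1.06 ± 0.22, SE; limma adjusted p = 0.0311). It passed in 10 of the 17 fits without 1 library, with the highest adjusted p of 0.0819 without wild-type TGF-β1 library 4. Csf1r and Laptm5 rose and Lgals3 fell among 25 macrophage identity genes tested, whose median was 0.36. Of the 25, 19 had a positive difference, beside 54.3% of all genes.

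Complement genes were led by the C1q chains, which form the recognition unit of the classical pathway. C1qc ranged from 0.88 to 363 TPM in controls with a median of 105, and from 286 to 2048 TPM with a median of 785 after TGF-β1. Its log2 difference was 3.57 ± 0.75 (SE; limma adjusted p = 0.0332), but it passed in 9 of the 17 fits without 1 library, with the highest adjusted p of 0.0765 without knockout TGF-β1 library 3. C1qa had the larger log2 difference of 4.95 ± 1.17 (SE) and did not pass (limma adjusted p = 0.066), with medians of 0.68 and 298 TPM. The other chain, C1qb, had a log2 difference of 0.95 and did not pass. Of 9 complement genes C1qc alone passed, beside 0.436% of all genes. Cfp, properdin of the alternative pathway, had medians of 411 and 217 TPM (log2 difference −1.25 ± 0.46, SE; limma adjusted p = 0.292). The median of the 9 was 0.36.

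Microglia-type genes, a list named for the cells in which TGF-β1 is known to sustain them, had mostly positive differences. Of 20 listed, 13 were tested. Of those 13, 12 were positive, 8 of these at an unadjusted p under 0.05, beside 7.83% of all genes, but the 4 named here did not pass. Tmem119, P2ry12 and P2ry13 reached TPM 1 in 2, 1 and 2 controls and in 5 treated libraries each. They met the filter only through treated libraries, which largely fixes their sign, so the count is a description only. Tmem119 was at 0 in 6 of 10 controls with a highest value of 3.41 TPM, and held 334, 99.6, 0 and 227 TPM in wild-type and 0.38, 23 and 170 TPM in knockout treated libraries. Its log2 difference of 4.55 ± 1.07 (SE) did not pass (limma adjusted p = 0.066). Cx3cr1, the fractalkine receptor, had medians of 69.8 and 431 TPM and a difference of 3.06 ± 0.79 in log2 (SE; limma adjusted p = 0.0971). P2ry12 and P2ry13, receptors for extracellular nucleotides, had log2 differences of 3.79 ± 0.97 (SE; limma adjusted p = 0.0898) and 3.52 ± 1.05 (SE; limma adjusted p = 0.162). Each of the 4 was above every control in 5 of the 7 treated libraries.

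The actin-binding thymosins moved in opposite directions. Tmsb4x, thymosin beta 4, which holds actin monomers, was among the most abundant transcripts. It ranged from 4046 to 10227 TPM in controls and from 8291 to 20378 after TGF-β1 (log2 difference 1.23 ± 0.19, SE; limma adjusted p = 0.00416). Its relative Tmsb10 fell from a median of 1062 TPM to 392 (log2 difference −1.32 ± 0.22, SE; limma adjusted p = 0.00506), and was lower than the control median in all 7 treated libraries. Both have near-identical copies in the genome, among which the estimate divides reads, so their values are uncertain. Vim, the intermediate filament vimentin, fell from a median of 3697 TPM to 1269 (log2 difference −1.27 ± 0.26, SE; limma adjusted p = 0.0276) and passed in 13 of the 17 fits without 1 library. The highest of the other 4 adjusted p-values was 0.0779, without wild-type TGF-β1 library 4, and the rest came without wild-type TGF-β1 library 1 or 3 or knockout TGF-β1 library 3. Mtss1, a protein that bends membranes at the actin cortex, fell from a median of 52.9 TPM to 2.79 (log2 difference −3.32 ± 0.71, SE; limma adjusted p = 0.038). It passed in 4 of the 17 fits, with the highest adjusted p of 0.0981 without knockout TGF-β1 library 2.

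Tuba1b and Tubb5, subunits of microtubules, rose. Tuba1b ranged from 637 to 2543 TPM in controls and from 2639 to 4989 after TGF-β1, without overlap (log2 difference 1.45 ± 0.23, SE; limma adjusted p = 0.00506). Tubb5 had medians of 567.6 and 1562 TPM (log2 difference 1.48 ± 0.29, SE; limma adjusted p = 0.0192) and did not pass without knockout TGF-β1 library 2 or wild-type TGF-β1 library 1 (limma adjusted p = 0.067 and 0.0588). H2afz, a histone variant, rose from a median of 629 TPM to 2302 (log2 difference 1.54 ± 0.27, SE; limma adjusted p = 0.00927). With cell cycle level as a covariate these 3 differences were 0.66, 0.48 and 0.86 and did not pass (limma adjusted p = 0.666, 0.847 and 0.674). Tubulins too have near-identical copies, so the division between them is uncertain.

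The p53 targets Cdkn1a and Phlda3 rose, and the mean level of cell cycle genes was higher in the treated libraries. Cdkn1a, the p21 inhibitor of cyclin-dependent kinases and a target of both p53 and TGF-β signalling, ranged from 93.9 to 600 TPM in controls with a median of 272, and from 364 to 3422 TPM with a median of 1233 after TGF-β1. In 6 of 7 treated libraries it was above every control (log2 difference 2.49 ± 0.43, SE; limma adjusted p = 0.00753). Phlda3, a p53 target that opposes Akt, held 274, 62.6, 95.9 and 136 TPM in wild-type and 0.04, 122 and 30 TPM in knockout treated libraries, beside a control median of 0.04 and a highest control of 23.8. It passed (log2 difference 4.86 ± 1.03, SE; limma adjusted p = 0.0367), but in 3 of the 17 fits without 1 library only, with the highest adjusted p of 0.0992 without knockout TGF-β1 library 2. Of 19 p53 targets tested, 14 had a positive difference at an unadjusted p under 0.05, beside 7.83% of all genes, and the median was 2.14. In the other direction 1 reached that p, beside 3.45% of all genes, Plk2 with −2.03 in log2 (limma adjusted p = 0.336). Btg2 and Bbc3, further p53 targets, had log2 differences of 3.72 ± 0.91 (SE) and 3.33 ± 0.81 (SE), each with limma adjusted p = 0.0726.

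None of 22 mitosis genes passed, beside 0.436% of all genes. All 22 had a positive difference at an unadjusted p under 0.05, beside 7.83% of all genes, with a median of 2.78. Aurka, a spindle pole kinase, ranged from 0.03 to 294 TPM in controls with a median of 19.6, and from 61.3 to 490 TPM with a median of 211 after TGF-β1 (log2 difference 3.63 ± 1.04, SE; limma adjusted p = 0.143). Several controls were as high as treated libraries and others near 0. Ube2c and Prc1, of mitotic exit and cell division, had limma adjusted p = 0.26 and 0.183. Of 24 DNA replication genes none passed, beside 0.436% of all genes. A positive difference was found in 19, beside 54.3% of all genes, and the median was 0.94. Tk1, thymidine kinase, had medians of 47.5 and 164 TPM (log2 difference 2.41 ± 0.60, SE; limma adjusted p = 0.0777). Pole2, a subunit of DNA polymerase epsilon outside that list, rose, by 5.09 in wild type and 2.71 in knockout on the log2 scale (limma adjusted p = 0.0248 over both), with 0 to 28.6 TPM in controls and 14.3 to 73.5 after TGF-β1. It passed in 12 of the 17 fits without 1 library, with the highest adjusted p of 0.0719 without wild-type TGF-β1 library 1.

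Taken as 1 value per library, the mean log2(TPM + 1) of the replication and mitosis lists was 4.85 ± 0.99 (SD, n = 10) in controls and 6.57 ± 0.29 (SD, n = 7) after TGF-β1. The controls spread from 3.07 to 6.27 and the treated libraries from 6.12 to 6.97. The difference with genotype as covariate was 1.72 (two-sided exact permutation test over 7056 relabellings within genotype, p = 0.00113). Both lists were chosen with earlier results of these data known, so this p is a description only. The share of TPM in mitochondrially encoded genes was 3.65% ± 0.93 (SD, n = 10) in controls and 2.64% ± 0.51 (SD, n = 7) after TGF-β1, a difference of −1.04 percentage points (two-sided exact permutation test, p = 0.0122). Among the 11 libraries with few zeros that difference was −1.03 (exact permutation test, p = 0.0733). All 13 mitochondrially encoded genes tested had a negative difference, 8 at an unadjusted p under 0.05, beside 3.45% of all genes, none passed, and the median was −0.52. Of 75 cytosolic ribosomal protein genes 59 had a negative and 16 a positive difference, beside 54.3% positive over all genes. None passed, and the median was −0.23, with −0.10 in wild type and −0.44 in knockout. The sign was the same in both genotypes for 49 of the 75, beside 57.0% of all genes. The part of these library measures in the gene results was tested only for cell cycle level.

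**Figure D3:**
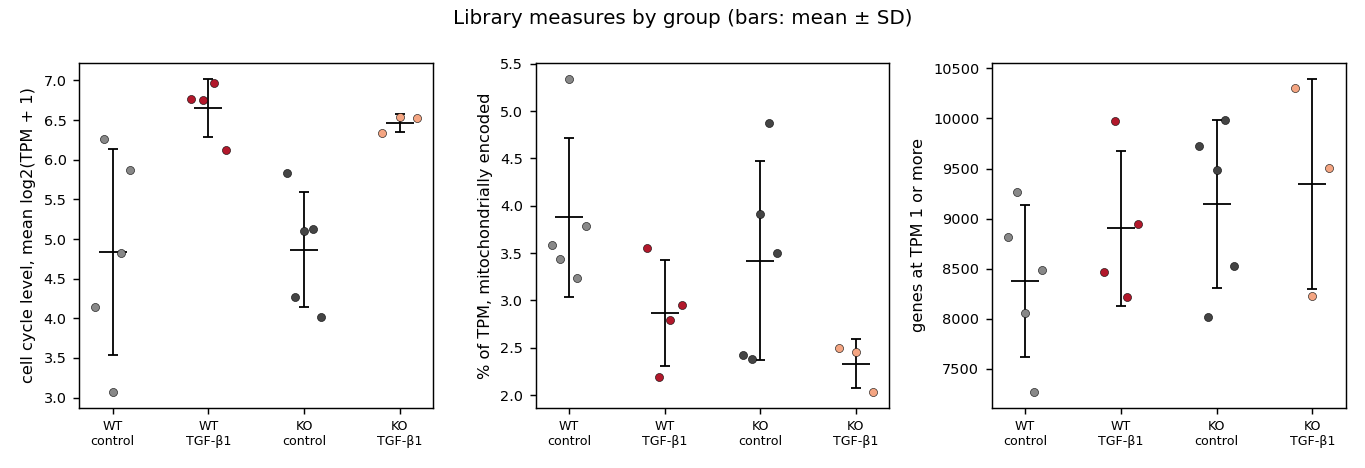
Cell cycle level, share of TPM in mitochondrially encoded genes, and number of genes at TPM 1 or more, by genotype label and treatment. Each point is 1 library and bars are group mean ± SD. The cell cycle level lies between 6.12 and 6.97 in treated libraries and spreads from 3.07 to 6.27 in controls.

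No receptor, Smad or activator of the TGF-β pathway passed, beside 0.436% of all genes tested. Of 18 receptors, Smads and activators tested, 15 had a positive difference, beside 54.3% of all genes, and the median was 0.32. Tgfbr1, the signalling receptor kinase, had medians of 27.3 and 47.5 TPM (log2 difference 0.85 ± 0.46, SE; limma adjusted p = 0.517). Tgfbr2, the ligand-binding kinase, had medians of 8.04 and 13.2 TPM (log2 difference 0.93 ± 0.83, SE; limma adjusted p = 0.747). Smad7, the feedback inhibitor, had medians of 0.115 and 6.23 TPM, with 35.7 in knockout TGF-β1 library 2 (log2 difference 1.78 ± 0.78, SE; limma adjusted p = 0.384). Smad2 and Smad4 ranged from near 0 to 94.5 and 43.3 TPM, with adjusted p-values of 0.849 and 0.846 by limma. Tgfb1 itself was at most 15.5 TPM in controls and 5.49 after TGF-β1.

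Smad6, an inhibitor of the related BMP pathway, was at 0 in 6 of the 7 treated libraries and had a median of 2.56 TPM in controls (log2 difference −1.60 ± 0.59, SE; limma adjusted p = 0.287). Of 22 target and feedback genes tested, 16 had a positive difference, beside 54.3% of all genes, 5 of these at an unadjusted p under 0.05, beside 7.83%. In the other direction 1 reached that p, beside 3.45% of all genes, Klf10 with −1.44 in log2 (limma adjusted p = 0.369). Cdkn1a alone passed, and the median was 0.23. Pmepa1, a feedback inhibitor induced by TGF-β in many cells, held 47.6, 39.2, 49.1 and 47.3 TPM in wild-type and 4.43, 3.1 and 44.7 TPM in knockout treated libraries, beside a control median of 0.16 and a highest control of 30.2. The wild-type treated libraries were all above the controls, and the log2 difference over both genotypes was 3.05 ± 0.88 (SE; limma adjusted p = 0.142). Id1, an inhibitor of basic helix-loop-helix factors, had medians of 143 and 328 TPM (limma adjusted p = 0.315). Hes1, a repressor induced by Notch and by TGF-β signalling, was at 0.13 TPM or less in all controls and held 208, 20.9, 48.1 and 19.2 TPM in wild-type treated libraries. In the knockout treated libraries it held 0.03, 0.03 and 21.9 TPM. It passed (log2 difference 3.67 ± 0.79, SE; limma adjusted p = 0.038), in 4 of the 17 fits without 1 library, with the highest adjusted p of 0.0953 without knockout TGF-β1 library 3. With a pseudocount of 10 its difference was 1.63 and did not pass (limma adjusted p = 0.0765). Of 10 Notch pathway genes Hes1 alone passed, beside 0.436% of all genes, and their median was 0.49.

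The defining myofibroblast genes Acta2 and Col1a1 were at or near 0 in nearly all libraries. Acta2, which encodes smooth muscle actin, held 22.5 TPM in wild-type TGF-β1 library 3 and 8.12 TPM in knockout control library 1, and 0.12 TPM or less in the other 15, too few to be tested. Col1a1, a chain of type I collagen, was listed at 0 in all 17. Of 29 extracellular matrix genes 17 were at 0 in every library and 5 were tested, none of which passed. All 5 encode enzymes of collagen modification, among them Plod1 with medians of 33.5 and 118 TPM (log2 difference 2.12 ± 0.61, SE; limma adjusted p = 0.147). No structural matrix gene of the list was tested. Of 20 contractile genes 6 were at 0 in every library and 8 were tested, of which 5 had a negative difference and Vim fell. Smtn, smoothelin, had medians of 0.305 and 16.9 TPM (log2 difference 2.60 ± 0.90, SE; limma adjusted p = 0.259). Whether a library came from cells with or without smooth muscle actin is not told by the labels. In libraries of many cells, fewer cells of a type and less RNA per cell could not be told apart.

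**Figure D4:**
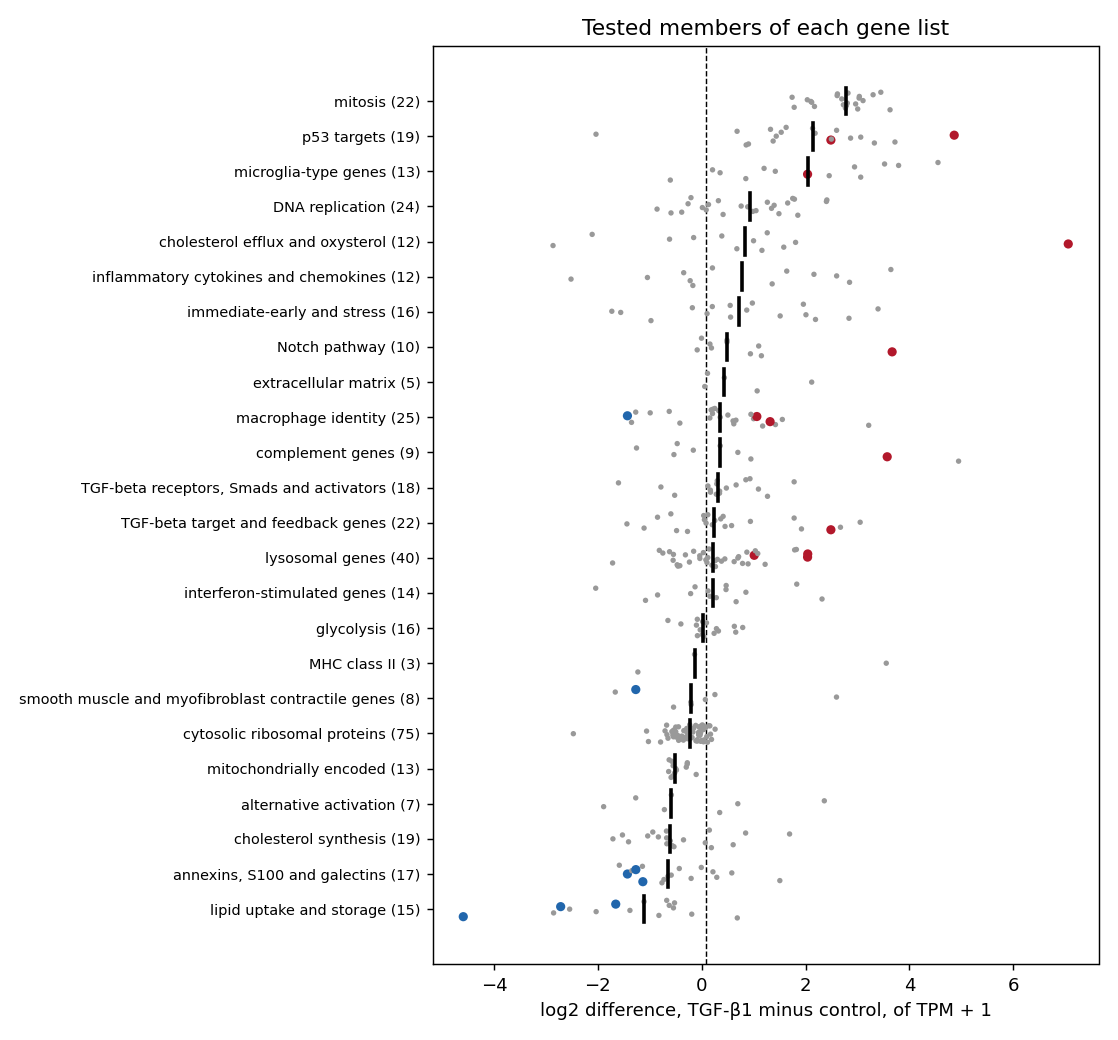
Log2 difference of every tested member of each gene list, TGF-β1 minus control, with genotype as covariate. Each point is a gene, larger and coloured where it passed, the short bar is the list's median and the dashed line the median of all genes tested, 0.08. Mitosis genes lie to the right of 0 without passing and lipid uptake and storage genes lie mostly to the left.

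Further genes that rose are listed by role. Hpgd, the enzyme that inactivates prostaglandins, ranged from 0 to 35.5 TPM in controls with a median of 0.045, and held 0.3, 116, 175 and 66.2 TPM in wild-type and 220, 21.9 and 263 TPM in knockout treated libraries (log2 difference 5.14 ± 1.04, SE; limma adjusted p = 0.0248). It passed in 13 of the 17 fits without 1 library and did not without knockout TGF-β1 library 3 or wild-type TGF-β1 library 2, 3 or 4, where the adjusted p was at most 0.0742. Haao, an oxygenase of tryptophan breakdown, was at 0.04 TPM or less in 9 of 10 controls and 31 in knockout control library 1, and ranged from 1.96 to 52.8 after TGF-β1 (log2 difference 3.91 ± 0.75, SE; limma adjusted p = 0.0192). Suox, sulfite oxidase, and Sat1, the acetyltransferase of spermidine breakdown, rose by 3.35 and 1.59 on the log2 scale, the first in 3 and the second in 14 of the 17 fits, with highest adjusted p-values of 0.097 without wild-type TGF-β1 library 4 and 0.0806 without knockout TGF-β1 library 2.

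Rgs12, which shortens G protein signals, had a median of 0.145 TPM in controls and 49.7 after TGF-β1 (log2 difference 4.74 ± 0.83, SE; limma adjusted p = 0.00927). Its highest controls, 30.1 and 19.1 TPM, lay beside a lowest treated value of 23.4. Rasal3, which switches off Ras in blood cells, ranged from 0.09 to 34.3 TPM in controls and from 41.8 to 178 after TGF-β1, without overlap (log2 difference 3.85 ± 0.74, SE; limma adjusted p = 0.0188). It did not pass without wild-type TGF-β1 library 1 or 4 or knockout TGF-β1 library 2 (limma adjusted p = 0.0512, 0.0555 and 0.0529). Ube2e3, a ubiquitin-conjugating enzyme, ranged from 0.04 to 30.9 TPM in controls and from 31.4 to 115 after TGF-β1, so that the lowest treated library lay just above the highest control. It passed in 5 of the 17 fits without 1 library (limma adjusted p = 0.0448 with all libraries and 0.111 without knockout TGF-β1 library 2).

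Ccm2, a scaffold of endothelial junction signalling, and Rapsn, which clusters acetylcholine receptors in muscle, rose by 4.40 and 4.33 on the log2 scale (limma adjusted p = 0.0415 and 0.0397). Ccm2 was at 55.1 and 63.5 TPM in 2 controls, inside the treated range of 17.1 to 97.1, and passed in 3 of the 17 fits without 1 library. Rapsn passed in 4, and the highest adjusted p-values were 0.0992 without knockout TGF-β1 library 2 for Ccm2 and 0.0986 without wild-type TGF-β1 library 4 for Rapsn. Mtus1, a protein of microtubules, had medians of 10 and 88.8 TPM (limma adjusted p = 0.0377) and passed in 7 of the 17, with 0.097 without wild-type TGF-β1 library 4. The remaining genes that rose were Serinc3, Prdx4, Glipr1, Gpr160, Ramp1, Prss16, the pseudogene Gm11545 and an ID with no symbol. The pseudogene Gm10157 was the remaining one that fell, and values of pseudogenes are uncertain because reads can belong to the parent gene. Serinc3 and Gm11545 passed in all 17 fits without 1 library and the other named ones in 3 to 13.

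No other list held a gene that passed, beside 0.436% of all genes tested. Of 12 inflammatory cytokine and chemokine genes 7 had a positive difference, with a median of 0.78 over both genotypes, −0.33 in wild type and 0.86 in knockout. Tnf, tumour necrosis factor, ranged from 0 to 53.9 TPM in controls with a median of 16, and from 47.3 to 307 TPM with a median of 85.3 after TGF-β1 (log2 difference 3.64 ± 0.91, SE; limma adjusted p = 0.0843). The chemokine Cxcl16 had medians of 166 and 633 TPM (log2 difference 2.60 ± 0.67, SE; limma adjusted p = 0.0898). Of 16 immediate-early and stress genes 12 had a positive difference and the median was 0.71. Egr1, a growth factor-induced transcription factor, was at most 3.94 TPM in controls and had a median of 15 after TGF-β1 (log2 difference 2.84 ± 0.72, SE; limma adjusted p = 0.0898). Alternative activation genes, 7 tested, had a median of −0.58, and interferon-stimulated genes, 14 tested, one of 0.22. Of 7 MHC class II genes 3 were tested, with a median of −0.14 over members that differed. H2-DMa had a log2 difference of 3.55 (limma adjusted p = 0.2), H2-DMb1 one of −0.14 and Cd74 one of −1.23. Among 16 glycolysis genes the median was 0.03.

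Markers of other cell types were summed in each library. The summed TPM of fibroblast markers was 0 to 1.95 in controls and 0 to 9.72 after TGF-β1, with Pdgfra, Dcn, Lum, Col1a1 and Col3a1 at 0 in every library. Neutrophil markers summed to 0 to 132 TPM in controls and to 0 after TGF-β1. Of 9, S100a8 alone was ever detected at TPM 1. Progenitor markers summed to 0 to 146 TPM in controls with a median of 0.1, and to 0.13 to 978 TPM with a median of 157 after TGF-β1. After TGF-β1 the sum came from Cd34 alone. The log2 difference of Cd34, 5.31 ± 1.30 (SE), did not pass (limma adjusted p = 0.0742). Kit, at 0 after TGF-β1, reached at most 11 TPM in controls. Prtn3, Ctsg, Mpo and Gata2 were at 0 in every library. Endothelial markers summed to 20.1 to 58.9 TPM in controls and 1.43 to 48 after TGF-β1, from Kdr and Vwf, with Pecam1, Cdh5, Tek and Emcn at 0. Dendritic cell, lymphocyte, erythroid and mast cell markers summed to at most 19.2, 53, 4.64 and 11 TPM in any library. The part of Cd34-bearing cells in the results was not tested.

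The effect was estimated in each genotype separately, from libraries that the other estimate does not use. All 53 genes had the same sign in both, which the choice of genes by the common effect largely fixes. For a set chosen in 1 genotype only, the other is free to differ. Of the 100 genes with the smallest p in wild type, 82 had the same sign in knockout, and of the 100 with the smallest p in knockout, 84 had the same sign in wild type. These are descriptions, since both effects of a gene share 1 estimate of its spread, so a gene with a small error in one has a small error in the other. Over all 12158 genes 57.0% had the same sign, and the correlation across genes of the effects was 0.22 (Pearson) and 0.19 (Spearman), a description in which genes are not independent replicates.

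No gene passed the test of a difference of the effect between genotypes (limma, smallest adjusted p = 0.3), and 569 (4.68%) had an unadjusted p under 0.05. Among the 53 genes 9 did, and 40 had the larger effect in wild type, with median sizes of 2.53 in wild type and 1.83 in knockout. The share of all genes with the larger effect in wild type was not computed, so the 40 is a description only. Over all genes, 9.97% had an unadjusted limma p under 0.05 in wild type and 5.93% in knockout. Among the 53, those with the smallest p for the difference were Gm10157 (0.000698), Cd36 (0.000996) and Hes1 (0.00773), each with the larger effect in wild type. Cdkn1a, Ch25h, Tuba1b, Tmsb10 and Csf1r were among those with a p over 0.4 for the difference, which does not show that the effects are alike. The knockout estimate rests on 3 treated libraries, and library 1 of these was the one treated library inside the control range for Lpl, Mtss1 (55.5 TPM), Lgals3 and Cd72. Leaving it out gave 30 genes that fell in place of 13.

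**Figure D5:**
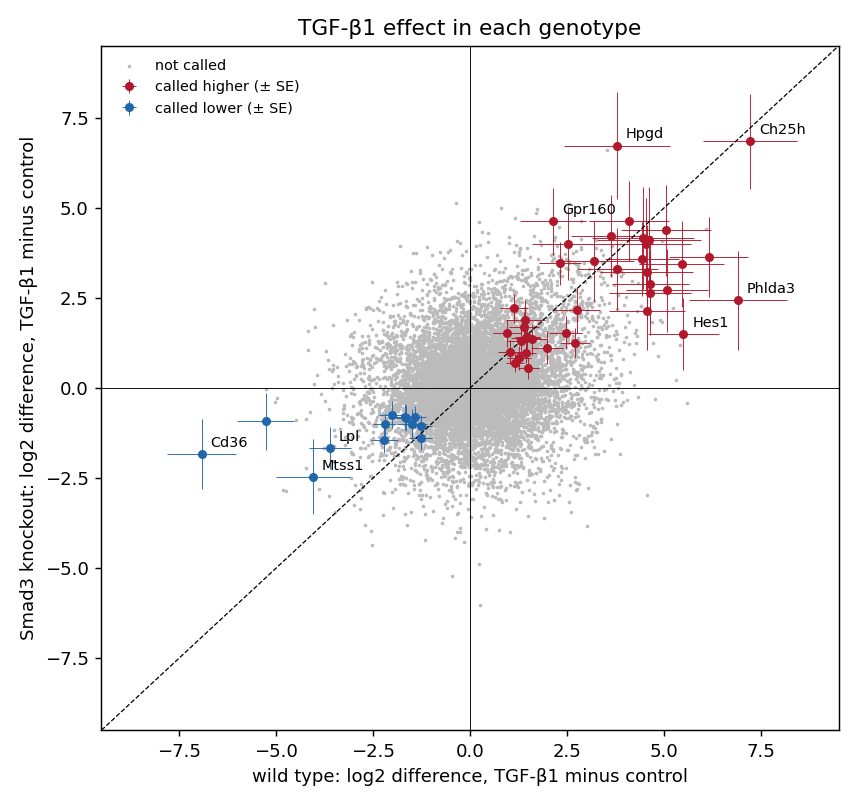
Log2 difference after TGF-β1 in libraries labelled knockout against that in wild type for all tested genes, with the 53 genes that passed coloured by direction with bars of ± SE. The dashed line marks equal effects. The 53 points lie in the quadrants of same sign, and 40 of them have the larger effect in wild type, a count with no share over all genes beside it.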

How the data were processed

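The deposited values are TPM, corrected for gene length, with 1 common total for all libraries. By the submitters' processing notes the authors used FastQC, Trim Galore and RSEM with mouse build mm9, whose versions the sources used here do not give. Since depth is lost in TPM, counting intervals and detection limits could not be computed. Reads of near-identical transcripts are shared out among them by RSEM.

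Symbols came from GENCODE vM21 of GRCm38 for 32897 of 37620 gene IDs. A gene was tested if 3 or more libraries had it at TPM 1 or above, which left 12158, and 11438 of those carried a symbol. Treatment effects came from limma 3.58.1 (R 4.3.3; lmFit, eBayes with trend) on log2(TPM + 1), a scale that makes changes of low genes look smaller, with treatment and genotype over all 17 libraries. A fit with 4 group means gave the effect per genotype and its difference. Benjamini-Hochberg adjusted p under 0.05 counted as passing. Library measures were compared by exact permutation.

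The naming rule took up to 15 passing genes per direction by size of log2 difference (mean TPM 10 or more in a treatment, no clone-type symbol). It also took each list's passing members and its 3 largest, and a few fixed genes. Not every list member it took is described here, so members left out are not always smaller. The other passing genes were named after their values were seen. Members and lists were chosen with earlier results of these data known. Replicate numbers are titles' numbers. Promoter windows were matched by symbol. One gene that passed is not reported here.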

Additional observations from a re-analysis of the deposited data

Results flagged for a closer look

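A library was taken as standing apart from the others of its group where its gap to the nearest of them, over the group's range, passed Dixon's 95% limit. Chance gives about 1 in 20 groups, and 51 of 368 groups tested had such a library. Groups of 3 libraries were not tested. Single genes high or low in 1 library made up 50 of the 51, and most concern genes near 0 in the rest of the group.

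In the wild-type controls, library 1 was high for Ch25h with 48.1 TPM, Rapsn with 28, Ube2e3 with 30.9, Tgfb1 with 15.5, Ccne1 with 38.1 and Bbc3 with 12.2. Library 2 was high for Smad7 with 6.1 TPM and Itgax with 19.1, and low for Anxa3 with 0.76 and Rpl5 with 3.7. Library 3 was high for Rgs12 with 19.1 TPM, Pole2 with 1.33, Cd74 with 1181 and Ier3 with 40.5, and held 5.34% of its TPM in mitochondrially encoded genes. Library 4 was low for Hk1 with 0 TPM and high for S100a8 with 132. Library 5 was high for Traf3ip3 with 19.96 TPM, Ccm2 with 63.5 and Zbp1 with 24.5, and low for Tmsb10 with 498, Tgfbr2 with 0.29 and Cd68 with 1435.

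In the wild-type TGF-β1 group, library 1 was low for Plod2 with 0 TPM. Library 2 was low for Ccm2 with 17.1 TPM, Pmepa1 with 39.2 and Btg2 with 8.17, and high for Smad6 with 1.08, Fabp4 with 9.12, Vcl with 13.4, Mrc1 with 5.87 and Rtp4 with 7.63. Library 3 was low for P2ry13 with 0 TPM, Mvk with 0.06 and Gm11545 with 0. Library 4 was high for Cd74 with 8.49 TPM and low for Rpl12 with 87.3.

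In the knockout controls, library 1 was high for Rgs12 with 30.1 TPM, Haao with 31, P2ry12 with 8.47, Btg2 with 6.08, H2-DMa with 34.4 and Cd34 with 146, and low for Vwf with 1.66. Library 2 was low for Dusp1 with 0.18 TPM. Library 3 was high for Smad3 with 1.93 TPM, Ifit2 with 3.41 and Gm11545 with 1.06. Library 5 was low for Smad2 with 1.19 TPM and Id1 with 0.49, and high for Notch1 with 46.2.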

How the results depend on the processing

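All 53 differences kept their direction in the 13 other settings and in the 17 fits without 1 library, which the choice of genes in the same libraries largely fixes. No named value that passed reversed. Leaving out each library in turn gave 20 to 56 genes higher, 7 to 30 lower and 0 to 1 differing between genotypes. It gave 74 to 91 of 100 and 63 to 85 of 100 genes with the same sign in the other genotype. The difference in the percent of moderately expressed genes at 0 ran from −0.82 to 0.85 around 0.01. Genes higher numbered 62 with a pseudocount of 10, where the log2 difference of Mcam, for example, was 1.64 and Ramp1, at 1.42, did not pass (limma adjusted p = 0.0706); 9 without a filter on low values, where more genes are tested; 0 among libraries with few zeros; and 4 with cell cycle level as covariate, where the log2 difference of Ccm2 was 2.06. Genes lower numbered 3 without a filter, 23 after quantile normalization, 0 among libraries with few zeros and 1 with the cell cycle covariate. One gene differed between genotypes without a filter, and 1 with the cell cycle covariate. Quantile normalization and the cell cycle covariate shifted the median of all genes by −0.15 and −0.17. The mitochondrial share differed by −1.03 points among libraries with few zeros and lost its call there (exact permutation test, p = 0.0733). With a replicate block, 13 genes were higher and 6 lower, and 18 of these 19 were among the 53. Replicate numbers come from titles, no label says that a number marks a shared animal or day, and deviations of the 22 same-numbered pairs correlated at −0.076 to 0.021, so the numbers were not taken as pairs. No library correlated best with one of its own number. The causes were not tested. With depth unknown, what low genes could show is not known.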
